A study of Mus musculus with 12 samples.

Results

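The genes described here are the epithelial alarmins Il33, Tslp and Il25, the alarmin receptor chains Il1rl1 and Il17rb, the type 2 cytokines Il4, Il5 and Il13, and the receptor chains Il4ra and Il13ra1. They were chosen by symbol, without regard to their values, and are 10 of the 78298 gene rows in the count table. A filter on low counts kept 22190 rows for testing, among them 7 of the 10 genes. Il25, Il5 and Il13 did not pass it and were not tested. A gene can pass this filter through the libraries of 1 group alone, so the 7 are not a sample of all members.

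RNA was sequenced from mouse lung in 12 libraries, 3 for each of 4 groups: normal adjacent lung under VEH, normal adjacent lung under HDM, LLC tumours under VEH and LLC tumours under HDM. The series title gives HDM as house dust mite, while the labels leave VEH and LLC unexplained. Macroscopic tumours and adjacent lung were cut out by hand under a microscope and frozen, and all 12 libraries carry the same batch label. The labels give no strain, genotype, sex, age, mite dose or number of mice, and nothing in them says that replicates are separate animals, so p-values measure only the spread between these libraries.

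Alarmins are cytokines that lining and stromal cells release when a barrier is injured or meets an allergen. IL-33 binds ST2, the product of Il1rl1, together with the accessory chain encoded by Il1rap and signals through MYD88. TSLP binds CRLF2 paired with the IL-7 receptor chain, and IL-25, a product of tuft cells, binds IL-17RB paired with IL-17RA. Group 2 innate lymphoid cells, mast cells, basophils and T helper 2 cells answer these signals with IL-4, IL-5 and IL-13. IL-4 and IL-13 act through the receptor chain encoded by Il4ra, joined either to the common gamma chain (Il2rg) or to IL-13RA1, and activate STAT6, while IL-13RA2 is a decoy for IL-13. House dust mite extract is a standard way to set off this pathway in the mouse airway.

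Total counts ran from 20608682 to 32765364 per library. Levels are given as CPM, which puts all libraries on the same total after TMM scaling. Summed over 6 alveolar type 2 cell markers, normal libraries held 15149 to 40433 CPM and tumours 127 to 2339 CPM, except for tumour VEH replicate 2 at 7825 CPM. Summed over 5 proliferation genes, tumours held 457 to 930 CPM and normal libraries 25.0 to 37.6 CPM, except for normal VEH replicate 2 at 142 CPM. In tumour HDM replicate 3 the alveolar sum was 127 CPM, beside 2337 and 2339 CPM in the other HDM tumours. Tumour VEH replicate 2, normal VEH replicate 2 and tumour HDM replicate 3 therefore stand apart from the rest of their groups in these sums, and tumour HDM replicate 3 also had the highest Il33 and the lowest Il13ra1 of the HDM tumours. Library names share a prefix in 6 pairs of 1 normal and 1 tumour library. In 2 of the pairs the treatment labels differ. One pair holds normal VEH replicate 2 beside an HDM tumour (replicate 2), and the other holds normal HDM replicate 3 beside a VEH tumour (replicate 3). Labels were used as given, and results are also stated without these 4 libraries where that changes a call.

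Among the 7 tested members, 1 was called in tumour against normal tissue under VEH, at an adjusted p below 0.05 in edgeR's quasi-likelihood test, beside 38.9% of all genes tested. It was lower in tumour, as were 20.6% of all genes. Under HDM 3 were called, beside 51.9% of all genes: 1 was higher (23% of all genes) and 2 were lower (28.9%). Libraries did not overlap for 2 members under VEH, both lower in tumour, and for 2 under HDM, beside 52.4% and 63.1% of all genes. The members were thus called no more often than the average gene, and the directions differed. Il1rl1, which encodes the IL-33 receptor, rose in tumours under HDM. Il13ra1, which encodes the IL-13 receptor chain, fell in tumours under both treatments, and Tslp fell under HDM. Median log2 fold changes of the 7 were -0.47 under VEH and 0.01 under HDM, and those of all genes tested were -0.11 and -0.08.

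**Figure D1:**
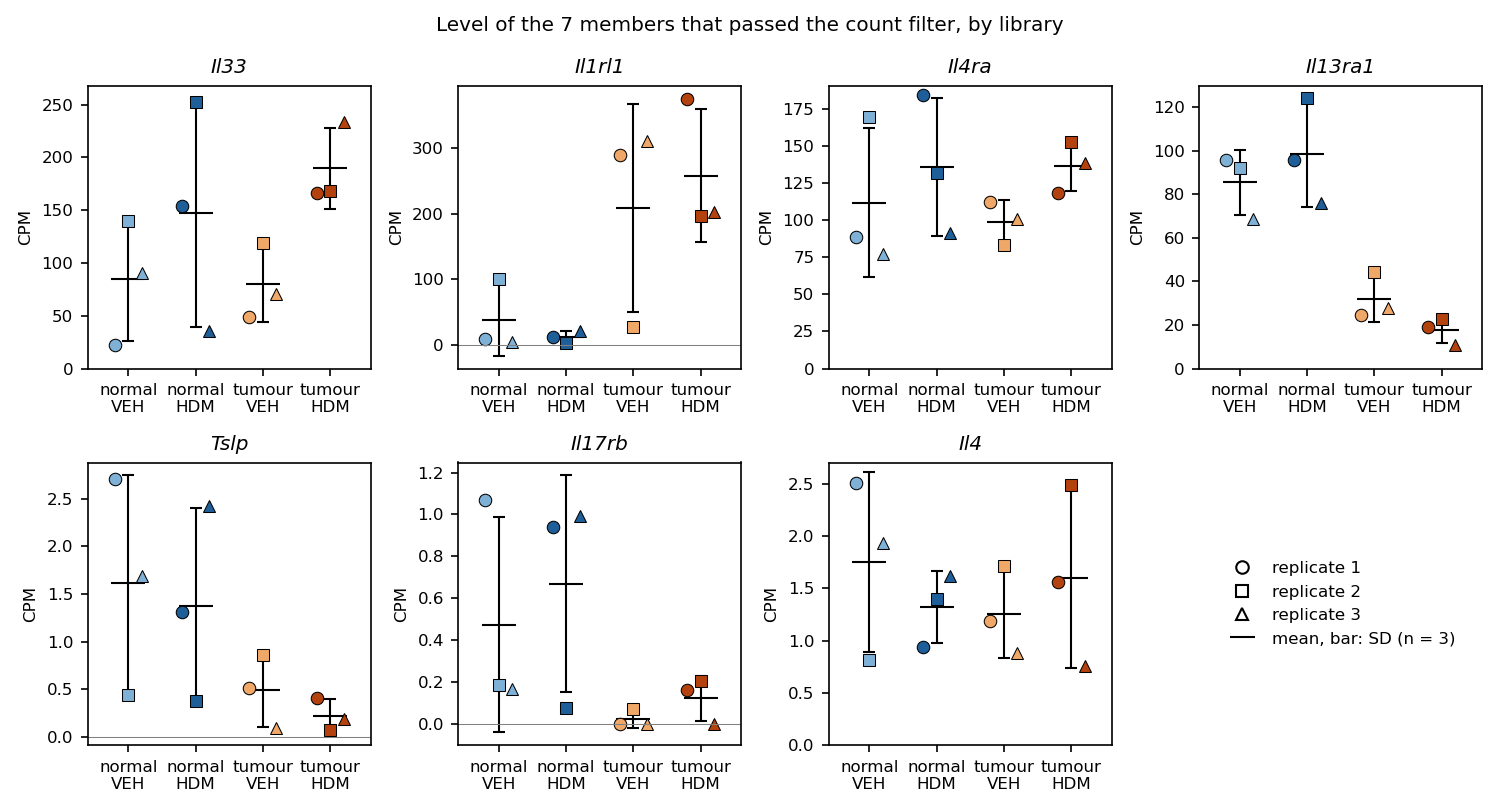
Level in CPM (vertical axes, each with its own scale) of the 7 tested genes in the 4 groups of 3 libraries, with mean and SD. Il1rl1 is high in 5 of 6 tumours, Il13ra1 is lower in every tumour than in every normal library, and Il4 stays below 3 CPM throughout.

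Of the alarmins, Il33 was abundant and variable (ENSMUSG00000024810, chromosome 19, 29902483 to 29938933 on the plus strand of GRCm39). In mouse lung it is made mainly by alveolar type 2 cells and is kept in the nucleus until the cell is damaged. In replicates 1, 2 and 3 it stood at 22.8, 140 and 90.6 CPM in normal VEH lung and at 154, 252 and 35.8 CPM in normal HDM lung. Tumours held 49.1, 119 and 71.0 CPM under VEH and 166, 169 and 234 CPM under HDM. The normal groups each spread over several-fold, whereas the HDM tumours were close together and all above the VEH tumours.

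Group means of Il33 were 84.4 ± 58.7 CPM in normal VEH, 148 ± 108 in normal HDM, 79.7 ± 35.7 in tumour VEH and 190 ± 38.5 in tumour HDM (SD, n = 3). The difference between HDM and VEH tumours was 1.25 ± 0.71 (log2, SE) and was not called (adjusted p 0.397, edgeR). Libraries that do not overlap in this direction were found for 11.3% of all genes in the same comparison. HDM against VEH in normal lung gave 0.81 ± 0.70 (adjusted p 0.968), with overlapping libraries. Tumour against normal was -0.08 ± 0.70 under VEH (adjusted p 0.932) and 0.36 ± 0.70 under HDM (adjusted p 0.687), and the libraries overlapped in both. The alveolar type 2 sum given above, most of it surfactant genes, was lower in every tumour than in every normal library, while Etv5, one of the 6, overlapped (42.5 to 237 CPM in normal lung, 42.7 to 65.2 CPM in tumours). Their part in the Il33 level was not tested. In bulk tissue, fewer cells of a type and less RNA per cell cannot be told apart.

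Tslp (ENSMUSG00000024379, chromosome 18, 32948436 to 32952850 on the plus strand) encodes thymic stromal lymphopoietin, an alarmin of epithelial cells and fibroblasts that acts on dendritic cells and innate lymphoid cells. It was low everywhere: 66, 14 and 40 counts in normal VEH, 32, 10 and 66 in normal HDM, 12, 23 and 2 in tumour VEH and 10, 2 and 6 in tumour HDM. In CPM these were 2.71, 0.440 and 1.68 in normal VEH, 1.31, 0.378 and 2.43 in normal HDM, 0.510, 0.855 and 0.0923 in tumour VEH, and 0.411, 0.0683 and 0.182 in tumour HDM. Both normal replicates 2 were inside the tumour range of their treatment, so tumour and normal libraries overlapped under each treatment.

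Tslp fell in tumours under HDM by 2.64 ± 1.01 on the log2 scale (adjusted p 0.0475, edgeR), a call near the threshold. It was lost without normal HDM replicate 1 (adjusted p 0.0798), normal HDM replicate 3 (-1.84, 0.180), tumour HDM replicate 2 (0.152) or tumour HDM replicate 3 (0.136), and without the 4 libraries with conflicting prefixes (0.226). Without tumour HDM replicate 1 it was -3.30 and still called (0.0488). Under VEH the difference was -1.70 ± 0.96 (adjusted p 0.173). HDM against VEH was not called in normal lung (-0.23 ± 0.91, adjusted p 1) or in tumours (-1.16 ± 1.00, adjusted p 0.590).

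Il25 (ENSMUSG00000040770, chromosome 14, 55170152 to 55173294 on the plus strand), the alarmin of tuft cells, had 0 counts in all 12 libraries. A count of 0 allows up to 3 counts, which is 0.0910 to 0.138 CPM depending on the library, and this covers counting error only. In the annotation 69.0% of the Il25 exon bases lie opposite exons of Gm62784, which also had 0 counts. Whether the counting used the strand is not given in the sources used here, so the bound may not hold for reads from that part. Of 6 tuft cell markers, Chat was at 0 in every library and Pou2f3, the factor that specifies tuft cells, was at 0 in all 6 tumours. The tuft list summed to 8.76 to 17.9 CPM in normal lung and 4.58 to 15.2 CPM in tumours. Dclk1 made up most of this sum (7.62 to 15.9 CPM in normal lung, 2.80 to 13.4 CPM in tumours). Trpm5 leaned the other way, at 0.566 to 1.52 CPM in normal lung and 1.44 to 2.08 CPM in tumours. Avil overlapped (0.328 to 0.739 and 0 to 0.446 CPM). The number of tuft cells was not tested.

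The receptor for IL-33 was the member with the widest range. Il1rl1 (ENSMUSG00000026069, chromosome 1, 40468730 to 40504575 on the plus strand) encodes ST2, which exists as a membrane receptor and as a soluble form that binds IL-33 without signalling. Counts per gene do not tell these forms apart. The gene is known to start at either of a pair of promoters, a distal one used in mast cells and other blood cells and a proximal one used in fibroblasts. The 250 bases before each start, and before the start of Il13ra1, are shown because these genes moved in opposite directions in tumours. They are from RefSeq on GRCm38.p6, a build other than that of the counts, and lie at chr1:40429320-40429569, chr1:40439379-40439628 and chrX:36111858-36112107, all on the plus strand. Capitals mark matches on either strand to the GATA factor word AGATAA, to its form ending in G (AGATAG), to its form starting with T (TGATAA) and to the form with both changes (TGATAG).
Il1rl1 distal: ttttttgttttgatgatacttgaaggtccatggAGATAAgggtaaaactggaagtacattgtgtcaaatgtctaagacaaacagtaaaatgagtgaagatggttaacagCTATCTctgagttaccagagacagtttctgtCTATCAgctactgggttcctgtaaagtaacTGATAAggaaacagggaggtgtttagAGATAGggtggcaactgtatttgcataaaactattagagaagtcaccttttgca
Il1rl1 proximal: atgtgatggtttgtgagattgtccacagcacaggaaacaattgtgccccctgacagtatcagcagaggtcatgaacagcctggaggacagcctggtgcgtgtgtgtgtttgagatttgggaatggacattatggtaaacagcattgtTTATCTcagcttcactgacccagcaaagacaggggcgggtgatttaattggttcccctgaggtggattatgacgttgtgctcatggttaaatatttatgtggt
Il13ra1: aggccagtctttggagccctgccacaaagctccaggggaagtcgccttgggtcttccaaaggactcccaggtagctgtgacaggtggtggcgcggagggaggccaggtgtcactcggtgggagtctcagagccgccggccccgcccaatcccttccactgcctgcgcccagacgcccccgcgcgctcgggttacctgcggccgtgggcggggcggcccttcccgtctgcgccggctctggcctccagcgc

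The distal Il1rl1 sequence held 5 GATA matches, the proximal one 1 and the Il13ra1 sequence 0. Of 32851 RefSeq windows of the same length, 26.5% held at least 1 match and 0.0426% held 5 or more. None of the 3 sequences held the STAT6 word TTCNNNNGAA (in 5.85% of windows) or the AP-1 word TGANTCA (in 6.75%). Base composition differed: GC content was 37.6% with 0 CpG at the distal start, 46.4% with 3 CpG at the proximal start and 70.8% with 21 CpG at Il13ra1, beside a median GC content of 52.4% over all windows. These are letters in a window and say nothing about which start was used in these tissues.

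In normal lung Il1rl1 stood at 10.2, 101 and 4.29 CPM under VEH and at 12.3, 3.36 and 21.6 CPM under HDM. In tumours it stood at 289, 27.1 and 310 CPM under VEH and at 374, 196 and 202 CPM under HDM. Normal VEH replicate 2 was far above the other normal libraries, and tumour VEH replicate 2 was the one tumour inside the normal range. Under HDM every tumour was above every normal library. From high to low, the group means were 258 ± 101 CPM (tumour HDM), 209 ± 158 (tumour VEH), 38.5 ± 54.2 (normal VEH) and 12.4 ± 9.11 (normal HDM), and neighbours in that order overlapped.

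Il1rl1 rose in tumours under HDM by 4.37 ± 1.29 on the log2 scale (adjusted p 0.0165, edgeR), 20.7-fold. Libraries that do not overlap and are higher in tumour were found for 29.6% of all genes in this comparison. The call was lost without normal HDM replicate 1 (4.37, adjusted p 0.0537) and without normal HDM replicate 2 (3.92, adjusted p 0.0558). It held without normal HDM replicate 3 (5.13, adjusted p 0.0296) and without the 4 libraries with conflicting prefixes (5.29, adjusted p 0.0305). Under VEH the difference was 2.44 ± 1.18 and was not called (adjusted p 0.122). It was called without normal VEH replicate 2 (4.85, adjusted p 0.0130) and not without tumour VEH replicate 2 (2.96, adjusted p 0.0650). The difference between the tumour effects under HDM and VEH was 1.94 ± 1.61 (adjusted p 0.689), so they were not shown to differ.

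Mite treatment gave no called difference in Il1rl1: -1.63 ± 1.16 in normal lung (adjusted p 0.939) and 0.30 ± 1.12 in tumours (adjusted p 0.922). Leaving out normal VEH replicate 2 turned the value in normal lung to 0.78. The library that raised the normal VEH mean also had the highest proliferation markers of the normal lungs, and the low tumour had the highest alveolar type 2 markers of the tumours. The part of tissue admixture in these values was not tested.

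**Figure D2:**
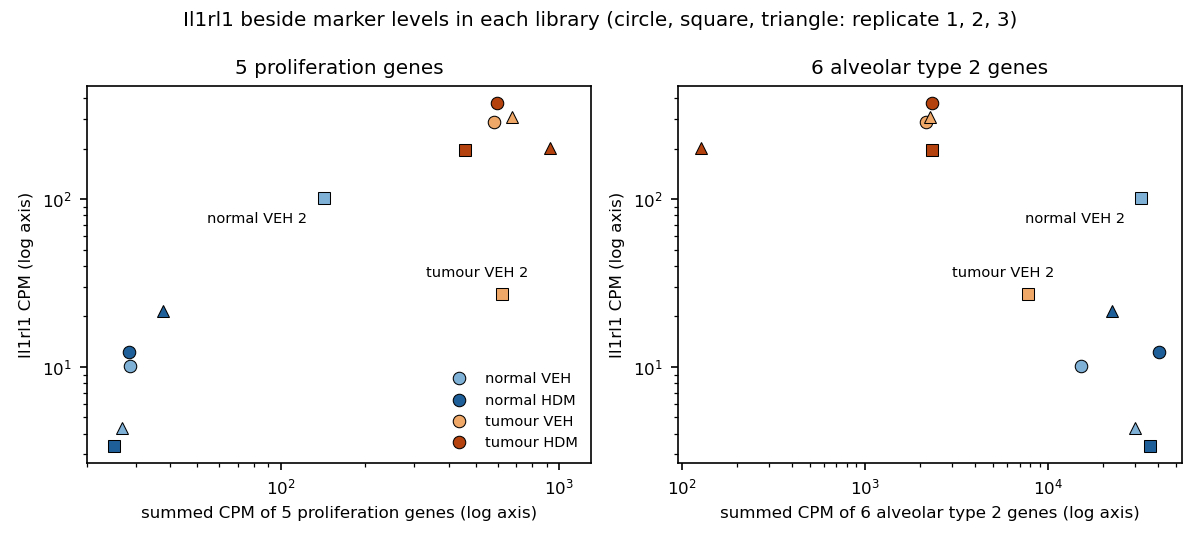
Il1rl1 level (vertical, CPM, log axis) against the summed level of 5 proliferation genes (left) and 6 alveolar type 2 genes (right) in each of the 12 libraries. Normal VEH replicate 2 lies between the groups on the left panel, and tumour VEH replicate 2 lies nearest to the normal libraries on the right panel.

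Markers of cells known to carry ST2 were set beside Il1rl1. Of 8 mast cell and basophil markers, between 3 and 8 were detected per library, and their sum was 65.0 to 129 CPM in normal lung and 9.89 to 20.9 CPM in tumours. The sum of 8 group 2 innate lymphoid cell markers, a list that includes Gata3, was 59.1 to 71.7 CPM in normal lung and 35.4 to 45.8 CPM in tumours. Stromal and mesothelial markers (6 genes) summed to 384 to 892 CPM in normal lung, 533 to 812 CPM in VEH tumours and 821 to 1193 CPM in HDM tumours. T cell markers (6 genes, Foxp3 among them) summed to 16.9 to 38.1 CPM in normal lung, 47.5 to 68.9 CPM in VEH tumours and 6.37 to 21.1 CPM in HDM tumours. These sums rest on few genes. Kit made up most of the mast cell sum (59.6 to 124.9 CPM in normal lung, 3.64 to 20.1 CPM in tumours), while the basophil gene Mcpt8 reached 0.227 CPM in normal lung and 1.64 CPM in tumours. Rora made up most of the innate lymphoid sum in normal lung (35.6 to 48.6 CPM, beside 1.40 to 6.69 CPM in tumours), while Areg was higher in every tumour (16.4 to 25.9 CPM) than in every normal library (4.93 to 16.1 CPM) and Hpgds spanned 0.842 to 5.32 CPM in normal lung and 3.64 to 15.0 CPM in tumours. Dpt, a fibroblast gene, was at 88.4 to 205 CPM in normal lung and 342 to 908 CPM in tumours, while Pi16 (7.45 to 76.3 CPM and 1.27 to 5.06 CPM) and the mesothelial gene Upk3b (0.904 to 224 CPM and 0 to 10.2 CPM) went the other way. Which cells held the transcript was not tested.

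Il17rb (ENSMUSG00000015966, chromosome 14, 29716082 to 29730956 on the minus strand) encodes the chain that gives IL-25 its specificity. It had 26, 6 and 4 counts in normal VEH, 23, 2 and 27 in normal HDM, 0, 2 and 0 in tumour VEH and 4, 6 and 0 in tumour HDM. In CPM the normal libraries spanned 0.0755 to 1.07 and the tumours 0 to 0.205. All VEH tumours were below all VEH normal libraries, which holds in this direction for 28.5% of all genes, and the difference was not called (adjusted p 0.0684, edgeR). No fold is given because the VEH tumours were all at 3 counts or fewer. Under HDM the libraries overlapped (-2.43 ± 1.31, adjusted p 0.143). In the annotation 38.8% of its exon bases lie opposite exons of Actr8, which had 8672 counts over the 12 libraries against 100 for Il17rb, and whether the counting used the strand is not given in the sources used here, so its low counts are uncertain. That share is of 6370 exon bases in GENCODE M39, while the deposited length of Il17rb is 3707 bases. The share within the counted gene model is therefore not known.

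Of the type 2 cytokines, Il5 and Il13 were at or near the detection limit and Il4 was low. Il4 (ENSMUSG00000000869, chromosome 11, 53493809 to 53509496 on the minus strand), which drives T helper 2 differentiation and the switch to IgE, was the only one found in every library, with 19 to 73 counts. It stood at 2.51, 0.818 and 1.94 CPM in normal VEH, 0.942, 1.40 and 1.62 in normal HDM, 1.19, 1.71 and 0.877 in tumour VEH, and 1.56, 2.49 and 0.758 in tumour HDM. All 4 groups overlapped. Tumour against normal was -0.47 ± 0.55 under VEH (adjusted p 0.515) and 0.28 ± 0.55 under HDM (adjusted p 0.695), and HDM against VEH was -0.40 ± 0.55 in normal lung (adjusted p 1) and 0.34 ± 0.55 in tumours (adjusted p 0.793). In 1 of its 4 annotated transcripts, 179 of the gene's 1227 exon bases lie opposite Kif3a, which had 8947 counts in all against 466 for Il4. How reads in shared bases were counted is not given in the sources used here, so the Il4 level is uncertain.

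Il5 (ENSMUSG00000036117, chromosome 11, 53611621 to 53615933 on the plus strand), the growth and survival factor of eosinophils, had 11 counts (0.452 CPM) in normal VEH replicate 1, 2 counts (0.0737 CPM) in normal HDM replicate 3 and 0 in the other 10 libraries. Il13 (ENSMUSG00000020383, chromosome 11, 53522151 to 53525529 on the minus strand), the main inducer of mucus in the airway, had 6 counts (0.221 CPM) in normal HDM replicate 3 and 0 in the other 11. Taking near zero as 10 counts or fewer in every library, Il25 and Il13 were near zero, and Il5 exceeded that bound in 1 library only. Neither Il5 nor Il13 was detected in any of the 6 tumours, which allows up to 3 counts in each. Of the Il5 exon bases, 27.1% lie opposite exons of Gm12214, which had 3 counts in all. The strand setting of the counting is not given, so this bound is uncertain for Il5. At this depth no difference between treatments was detectable for Il5 or Il13. Among genes with 1 to 20 counts, 68.2% to 72.0% of values were even in each library, and the sources used here do not say whether both reads of a fragment were counted, so the smallest counts may stand for fewer fragments.

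Eosinophil markers and Gata3 were set beside these cytokines. Of 4 eosinophil markers, Epx was at 0 in all 12 libraries, and the list summed to 2.14 to 12.7 CPM in normal lung and 0.182 to 1.23 CPM in tumours. Siglecf made up most of this sum (2.14 to 10.5 CPM in normal lung, 0.121 to 1.10 CPM in tumours). Prg2 (0 to 4.22 and 0 to 0.149 CPM) and Ccr3 (0 to 0.164 and 0 to 0.0850 CPM) overlapped. The sum therefore rests on 1 gene, and the number of eosinophils was not tested. Gata3, the transcription factor of T helper 2 cells and group 2 innate lymphoid cells that is also made by other lung cells, was at 3.46 to 14.9 CPM in normal lung, 0.923 to 2.64 CPM in VEH tumours and 0.121 to 0.411 CPM in HDM tumours.

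The receptor chains for IL-4 and IL-13 were abundant in every library, and the 2 chains behaved differently. Il4ra (ENSMUSG00000030748, chromosome 7, 125151079 to 125182844 on the plus strand), the signalling chain shared by both cytokines, stood at 88.8, 170 and 77.3 CPM in normal VEH, 184, 132 and 91.3 in normal HDM, 112, 83.3 and 101 in tumour VEH, and 119, 153 and 139 in tumour HDM. Normal libraries spread more than tumours, and the HDM tumours were all above the VEH tumours. Means were 112 ± 50.3, 136 ± 46.7, 98.8 ± 14.6 and 137 ± 17.3 CPM in that order of groups (SD, n = 3).

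Tumour against normal gave -0.18 ± 0.31 for Il4ra under VEH (adjusted p 0.663) and 0.01 ± 0.31 under HDM (adjusted p 0.978). HDM against VEH gave 0.28 ± 0.31 in normal lung (adjusted p 0.994) and 0.47 ± 0.31 in tumours (adjusted p 0.467), none of them called. The sign of the tumour value under VEH turned without normal VEH replicate 2 (0.25), so Il4ra has no stable direction between the tissues.

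Il13ra1 (ENSMUSG00000017057, chromosome X, 35375461 to 35435331 on the plus strand), the chain that binds IL-13 and completes the type II receptor on epithelial cells, fibroblasts and macrophages, had the smallest adjusted p of the members in both comparisons of tumour with normal. Normal lung held 95.9, 92.1 and 68.5 CPM under VEH and 95.6, 124 and 76.0 CPM under HDM. Tumours held 24.4, 44.1 and 27.7 CPM under VEH and 19.1, 23.0 and 11.0 CPM under HDM. Each tumour was below each normal library, and each HDM tumour was below each VEH tumour. Means were 85.5 ± 14.8, 98.6 ± 24.2, 32.1 ± 10.6 and 17.7 ± 6.11 CPM in the same order of groups (SD, n = 3).

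Il13ra1 fell in tumours by 1.41 ± 0.31 on the log2 scale under VEH (adjusted p 0.00576, edgeR), 2.66-fold, and by 2.48 ± 0.32 under HDM (adjusted p 0.00025), 5.58-fold. Libraries that do not overlap and are lower in tumour were found for 28.5% of all genes under VEH and 33.5% under HDM. Both calls held when any 1 library was left out. Without the 4 libraries with conflicting prefixes the VEH value was -1.16 (adjusted p 0.0708) and no longer called, while the HDM value was -2.76 (adjusted p 0.0051).

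HDM against VEH in tumours was -0.86 ± 0.31 for Il13ra1 (unadjusted p 0.0174, adjusted p 0.227, edgeR), and libraries that do not overlap in this direction were found for 10.7% of all genes. In normal lung the same comparison gave 0.21 ± 0.30 (adjusted p 1). The difference between the tumour effects under HDM and VEH was -1.07 ± 0.43 (unadjusted p 0.0313, adjusted p 0.512), which does not pass the correction. The alveolar type 2 sum was lower in tumours as well, and its part in the Il13ra1 level was not tested.

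**Figure D3:**
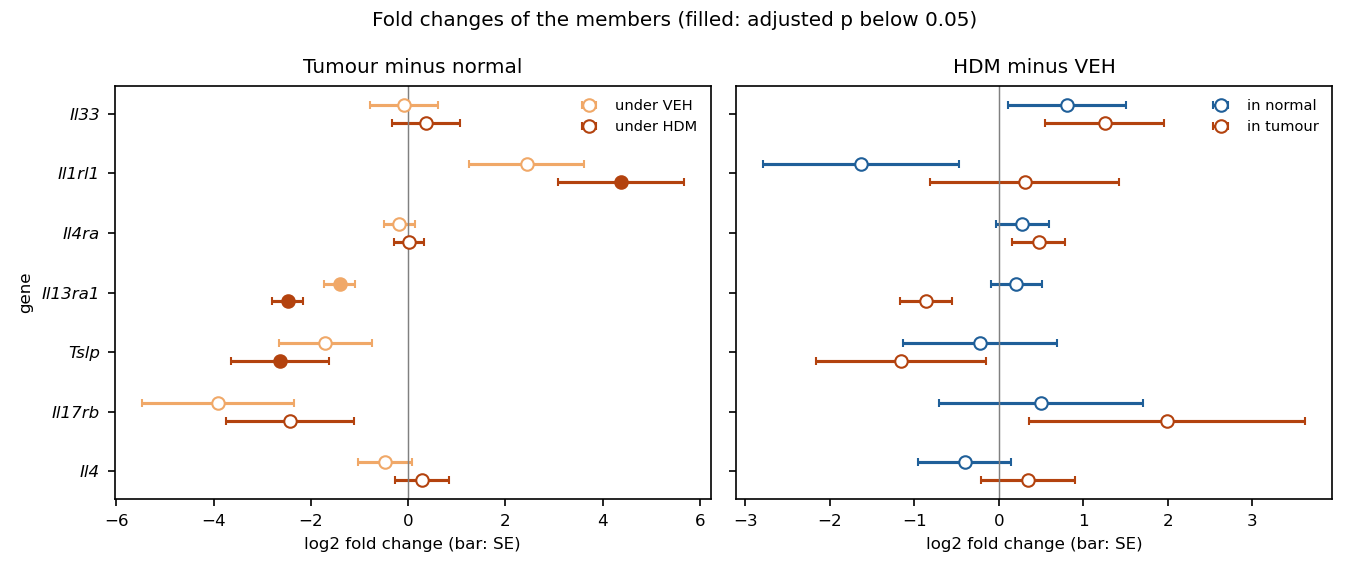
Log2 fold changes with their SE for the 7 tested genes, tumour against normal (left) and HDM against VEH (right). Filled points passed an adjusted p of 0.05 and are Il1rl1 and Tslp under HDM and Il13ra1 under both treatments. The Il17rb points under VEH and in tumours are fitted from VEH tumour counts of 0, 2 and 0 and give no measured fold.

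Across the treatment comparisons, edgeR called 0 of the 7 members in normal lung, beside 0% of all genes, 0 in tumours, beside 0.0946%, and 0 in the interaction, beside 0%. At an unadjusted p below 0.05 there were 0, 1 and 1 members, the 1 being Il13ra1 both times, beside 5.54%, 16.7% and 9.39% of all genes. DESeq2 also called 0 members in each. For all genes, DESeq2 called 43 in normal lung, 1311 in tumours and 222 in the interaction. Members whose libraries did not overlap numbered 0 in normal lung, beside 10.3% of all genes, and 3 in tumours (Il33 and Il4ra higher, Il13ra1 lower), beside 22%.

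Within the 6 library-name prefixes, Il1rl1 was higher in the tumour of all 6 pairs, by 0.96 to 6.77 on the log2 scale with a median of 3.93. Il13ra1 was lower in the tumour of all 6, with differences from -3.11 to -0.63 and a median of -1.99. Il33 was higher in 5 of 6 tumours (-0.60 to 1.11, median 0.50), Il4ra in 3, Il4 and Il17rb in 2 each, and Tslp in 1. The smallest Il1rl1 difference joined normal VEH replicate 2 to tumour HDM replicate 2, and the smallest Il13ra1 difference belonged to tumour VEH replicate 2. How many of all genes go the same way in all 6 pairs was not counted, and prefixes were not taken as pairing. Between whole groups, tumour and normal libraries did not overlap for 52.4% of all genes under VEH and 63.1% under HDM.

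For some members, level and prefix went together in normal lung. The 3 normal libraries whose prefix leads to a VEH tumour had the lowest Il4ra in normal lung (77.3, 88.8 and 91.3 CPM), and the 3 whose prefix leads to an HDM tumour had the highest (132, 170 and 184 CPM). Il33 was ordered in the same way, at 22.8, 35.8 and 90.6 CPM against 140, 154 and 252 CPM. The treatment labels of the normal libraries do not give this order, since normal VEH replicate 2 is among the high ones and normal HDM replicate 3 among the low ones. Without the 4 libraries concerned, HDM against VEH in normal lung was 1.84 ± 0.73 for Il33 (adjusted p 0.387) and 0.94 ± 0.24 for Il4ra (adjusted p 0.250), still not called with 2 libraries a group. Among the other tested members, Il4 and Tslp were ordered the opposite way over the same normal libraries. Those whose prefix leads to a VEH tumour held 1.62 to 2.51 CPM of Il4, against 0.818 to 1.40 CPM. For Tslp they held 1.68 to 2.71 CPM, against 0.378 to 1.31 CPM. Il1rl1, Il13ra1 and Il17rb overlapped between these sets. How many of all genes are ordered by prefix was not counted. No label says which treatment is right, and these orders were noticed after the values were seen.

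**Figure D4:**
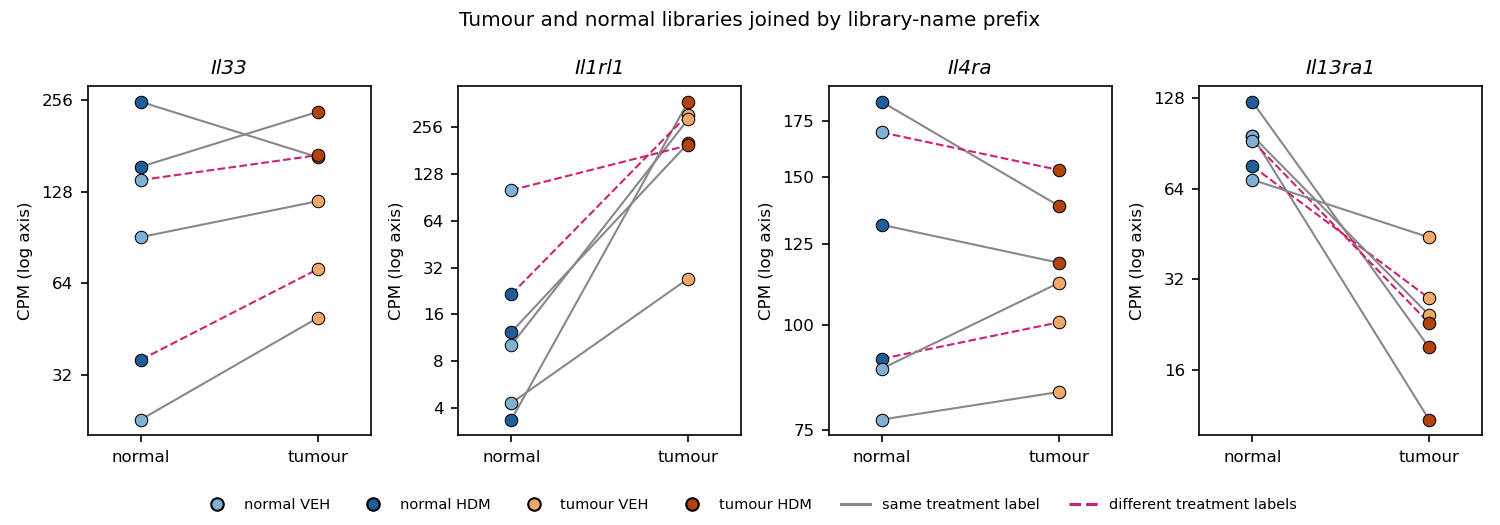
Il33, Il1rl1, Il4ra and Il13ra1 in CPM (log axes, each with its own range) in normal lung and tumour, with a line for each of the 6 library-name prefixes; dashed lines join libraries with different treatment labels. Lines for Il1rl1 all rise, those for Il13ra1 all fall, and those for Il4ra go both ways.

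Per kilobase of the deposited gene length, which allows genes to be compared, Il33 led in normal HDM lung at 51.1 ± 37.6 CPM per kilobase, ahead of Il13ra1 (26.6 ± 6.52), Il4ra (22.6 ± 7.79) and Il1rl1 (1.80 ± 1.32). The first 3 overlapped, and only the step from Il4ra to Il1rl1 exceeded the ranges. Normal VEH lung had the same order of these 4 genes, with Il33 at 29.2 and Il1rl1 at 5.58, and each neighbour overlapped the next. In HDM tumours the order was Il33 (65.7 ± 13.3), Il1rl1 (37.4 ± 14.7), Il4ra (22.8 ± 2.88) and Il13ra1 (4.76 ± 1.65), with no overlap between neighbours. VEH tumours had Il1rl1 (30.3 ± 22.9) and Il33 (27.6 ± 12.4) level within their ranges, then Il4ra (16.5 ± 2.43), which overlapped Il33, and Il13ra1 (8.64 ± 2.85), whose range lay below those of Il33 and Il4ra and inside that of Il1rl1. Il1rl1 moved from the fourth place in lung to the first or second in tumour, and Il13ra1 from the second to the fourth. Il4, Tslp and Il17rb averaged below 1.5 CPM per kilobase in every group. For Il33, Il4ra, Il13ra1 and Il17rb the deposited length is shorter than the exon length in GENCODE M39 (2886 against 6180 bases for Il33), so levels per kilobase depend on the gene model.

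Over the 12 libraries, the genes most like each member were found by the root mean square difference of centred log2 CPM, among about 11683 genes of at least moderate level. For Il1rl1 they were Ccl7, a monocyte-attracting chemokine (0.70, where Il1rl1 itself varied by 2.41 about its mean), the collagen gene Col5a3 (0.76) and the procollagen protease gene Adamts14 (0.79). For Il13ra1 they included Cebpa (0.21 against its own 1.09) and Ap1s3 (0.23). Il33 was closest to Tbc1d2 (0.60 against 1.05), Zc3h12a (0.65) and Adora2b (0.67), and Il4ra to Nsf (0.18 against 0.40), Slc6a6 (0.18) and Cpt1a (0.19). Among the members, the nearest pair was Il4 and Il4ra (0.82), a value set by the small variation of both, and the farthest was Il1rl1 and Tslp (3.49). The Il4 and Il4ra difference was larger than the variation of either about its own mean (0.54 for Il4, 0.40 for Il4ra). Nearest here therefore does not mean that these genes moved together.

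Of 9 partner and decoy genes, 3 were higher and 0 lower under VEH (median log2 fold change 0.88, beside -0.11 for all genes), and 3 were higher and 1 lower under HDM (median 0.11, beside -0.08). The shares called, 3 of 9 and 4 of 9, stand beside 38.9% and 51.9% of all genes, of which 18.2% and 23% were higher. Il1rap, the chain that pairs with ST2, was at 14.0 to 32.8 CPM in normal lung, 30.1 to 51.7 in VEH tumours and 65.5 to 124 in HDM tumours. It rose by 2.44 ± 0.33 under HDM (adjusted p 0.0003) and by 0.89 ± 0.32 under VEH (adjusted p 0.0450). The VEH call was lost without normal VEH replicate 1 or 3 or tumour VEH replicate 1 or 3 (adjusted p 0.108 to 0.145), with no filter on low counts (0.053) and with only the compared groups in the fit (0.0628). Sigirr, an inhibitory member of the IL-1 receptor family that dampens ST2, rose by 1.22 ± 0.24 under VEH (adjusted p 0.0035) and 0.80 ± 0.24 under HDM (adjusted p 0.0171), the latter not called with only the compared groups in the fit (adjusted p 0.0585).

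Il2rg, the common gamma chain, rose under VEH by 0.92 ± 0.34 (adjusted p 0.0499), a call lost in 5 of 6 fits without 1 library (all but the one without tumour VEH replicate 2). The T cell sum given above was highest in VEH tumours, while Foxp3, one of its genes, was at 7.01 to 10.003 CPM there and 9.60 to 12.3 CPM in normal VEH lung, and their part in the Il2rg level was not tested. The decoy Il13ra2 rose under HDM (adjusted p 0.0384) from 6, 0 and 0 counts in normal lung to 73, 73 and 20 counts in tumours. The size of its change is not fixed by these counts: the fitted log2 value was 4.60 ± 1.66, and 8.75 without normal HDM replicate 1, the library that held the 6 counts. Both receptors for IL-13 differed between the tissues, in opposite directions under HDM. The Il13ra2 call was lost when normal replicate 2 or 3 or tumour replicate 1 or 2 was left out (adjusted p 0.0725 to 0.109). Crlf2, the TSLP receptor chain, fell under HDM by 0.99 ± 0.30 (adjusted p 0.0173), lost when normal replicate 1 or tumour replicate 1 or 3 was left out (adjusted p 0.0741 to 0.124). The remaining chains Il7r, Il17ra, Il5ra and Csf2rb were not called under either treatment.

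Of 14 signalling genes, 1 was higher and 2 lower in tumours under VEH, and 2 were higher and 1 lower under HDM, with medians of 0.18 and -0.13. The share called, 21.4% under each treatment, was below the 38.9% (VEH) and 51.9% (HDM) of all genes. Gata3 fell by 5.44 ± 0.76 under HDM (adjusted p 0.0003) and by 2.42 ± 0.64 under VEH (adjusted p 0.0134), the latter lost without tumour VEH replicate 1 or 3 (adjusted p 0.0505 and 0.0605). The HDM value was -6.06 without tumour HDM replicate 1. Jak1, the kinase carried by the IL-4 receptor chain, rose by 0.74 ± 0.17 under VEH and 0.60 ± 0.17 under HDM (adjusted p 0.0075 and 0.0126). The adaptor gene Traf6 fell under VEH by 0.75 ± 0.21 (adjusted p 0.0162), lost without tumour VEH replicate 1 or 3 (adjusted p 0.0567 and 0.0509), and the kinase gene Irak1 rose under HDM by 0.46 ± 0.12 (adjusted p 0.0096), a call lost with the prefix block (adjusted p 0.054). Stat6, the factor that IL-4 and IL-13 activate, was not called (0.23 ± 0.20 and 0.17 ± 0.20).

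Among 20 genes that IL-4 and IL-13 are known to induce, 19 were tested (Retnlb was too low), 1 was higher and 1 lower in tumours under VEH, and 0 were higher and 7 lower under HDM. Their medians were 0.14 and -1.82. The share called under VEH, 2 of 19, was below the 38.9% of all genes. The share called under HDM, 7 of 19, was below the 51.9% of all genes, and 28.9% of all genes were called lower. The 7 were the goblet cell genes Muc5ac and Spdef, the macrophage genes Chil3 and Mgl2, the chemokine genes Ccl17 and Ccl22, which attract T helper 2 and regulatory T cells, and Cish, a feedback inhibitor of cytokine signalling.

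Cish was the steadiest of the list: it stood at 32.9 to 52.6 CPM in normal lung, 6.20 to 11.2 in VEH tumours and 1.46 to 4.68 in HDM tumours, and fell by 2.50 ± 0.40 under VEH (adjusted p 0.0014) and 3.62 ± 0.43 under HDM (adjusted p 0.0002). Mgl2 fell under HDM by 2.56 ± 0.46 (adjusted p 0.0012), Ccl17 by 4.04 ± 0.86 (adjusted p 0.0031) and Spdef by 5.31 ± 1.33 (adjusted p 0.0073). These 4 calls held when any 1 library was left out. Ccl22 fell by 1.88 ± 0.59 (adjusted p 0.0208), Muc5ac by 4.27 ± 1.53 (adjusted p 0.0379) and Chil3 by 5.43 ± 2.0 (adjusted p 0.0419). Ccl22 was lost when normal replicate 2 or 3 or tumour replicate 3 was left out (adjusted p 0.0583 to 0.0855). Muc5ac was lost without normal HDM replicate 2 or any 1 HDM tumour (adjusted p 0.0662 to 0.256). Its value was -1.96 without normal HDM replicate 2, which held 20.2 CPM beside 1.31 and 1.80 CPM in the other HDM lungs, and -4.87 and -3.50 without tumour HDM replicates 1 and 3. Chil3 was lost without any 1 of the libraries other than normal HDM replicate 3 (adjusted p 0.0735 to 0.109) and with no filter on low counts (0.133), and was -4.73 without normal HDM replicate 1 and -4.77 without tumour HDM replicate 3. Without tumour HDM replicate 3, Ccl17 was -3.29 and Spdef -4.54, and without tumour HDM replicate 1 Spdef was -6.24, all still called. Without the 4 libraries with conflicting prefixes, calls were lost under HDM for Spdef (adjusted p 0.0692), Ccl22 (0.100), Muc5ac (0.145), Jak1 (0.067) and Il13ra2 (0.0974), and under VEH for Il2rg (0.290) and Traf6 (0.112). Socs1, another feedback inhibitor, rose under VEH by 1.98 ± 0.47 (adjusted p 0.0081), and by 2.57 without normal VEH replicate 1.

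**Figure D5:**
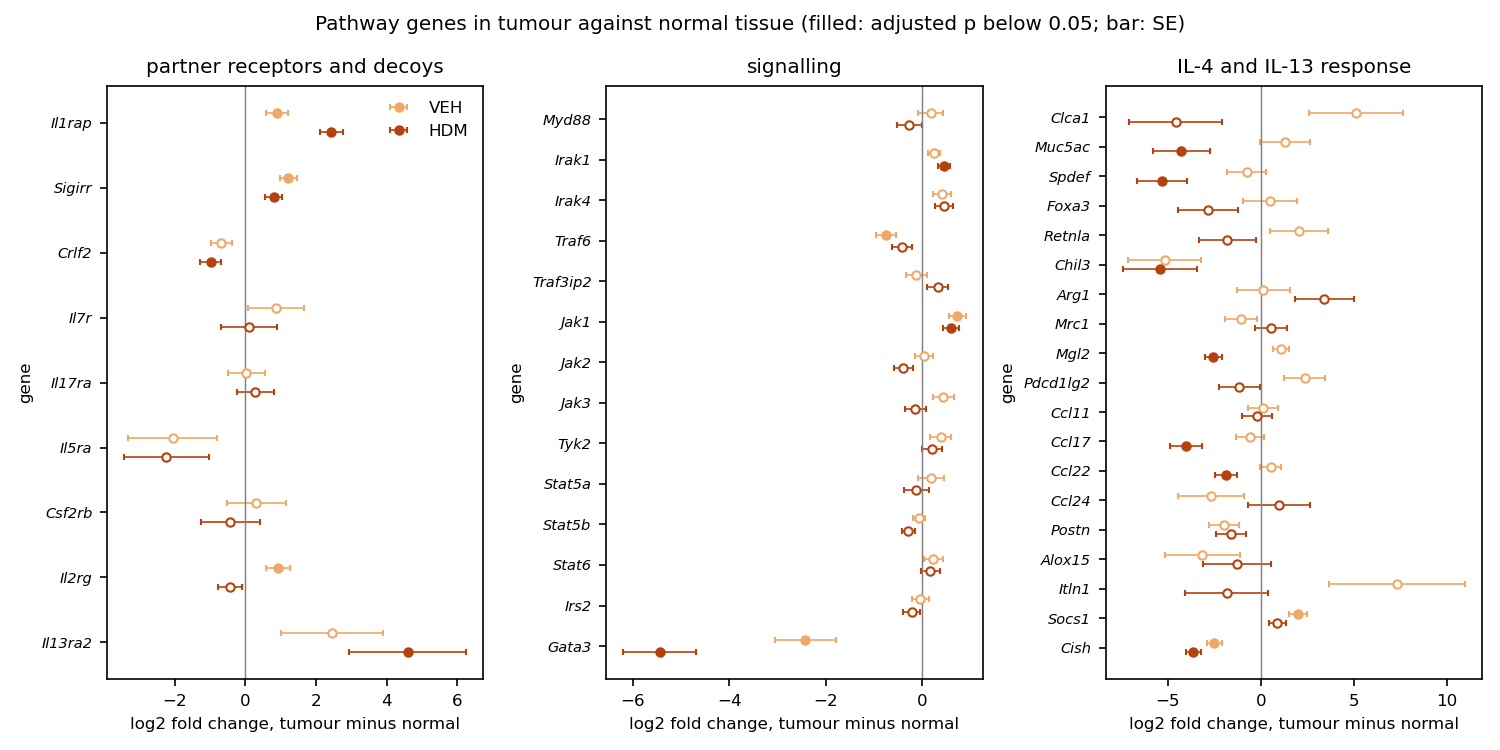
Log2 fold change of tumour against normal, with SE, for the genes of 3 pathway lists under VEH and HDM; filled points passed an adjusted p of 0.05. Il1rap and Sigirr lie to the right of 0, Gata3 and Cish to the left under both treatments, and 7 response genes are filled to the left under HDM, of which Cish is filled under VEH as well.

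Arg1, which both type 2 cytokines and tumour signals induce in macrophages, was not called (0.14 ± 1.44 under VEH and 3.40 ± 1.59 under HDM, adjusted p 0.945 and 0.0950). It stood at 64.0, 11.6 and 75.1 CPM in VEH tumours and at 78.7, 151 and 116 CPM in HDM tumours, and normal VEH replicate 2 held 130 CPM beside 1.48 and 5.52 CPM in the other VEH lungs. As for Il1rl1, that library was the high one of normal lung and tumour VEH replicate 2 the low one of the tumours. Macrophage markers summed to 123 to 452 CPM in normal lung and 288 to 466 CPM in tumours, and the genes of this list differed. Mertk was lower in every tumour (8.03 to 21.1 CPM) than in every normal library (22.7 to 80.4 CPM). Csf1r (70.3 to 147 CPM in normal lung, 140 to 234 CPM in tumours) and Adgre1 (10.2 to 46.2 and 42.5 to 90.2 CPM) leaned higher in tumours and overlapped. Marco and Cd68 overlapped as well. The number of macrophages was not tested.

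In the treatment comparisons edgeR called 0 genes of the 3 lists. At an unadjusted p below 0.05 in edgeR, HDM against VEH in tumours gave 2 of 9 partner genes, 3 of 14 signalling genes and 10 of 19 response genes, beside 16.7% of all genes. DESeq2 called 1, 1 and 4 there, beside 1311 over all genes. In normal lung the unadjusted counts were 0, 2 and 0, beside 5.54% of all genes. DESeq2 called 0 in each list there, beside 43 over all genes. In the interaction the unadjusted counts were 2, 1 and 7, beside 9.39% of all genes. DESeq2 called 0, 0 and 2 there, beside 222 over all genes. In tumours the smallest of these adjusted p values in edgeR was that of Mgl2, which stood at 30.9, 23.7 and 18.2 CPM under VEH and at 3.61, 2.66 and 3.46 CPM under HDM (-2.90 ± 0.46, adjusted p 0.0527).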

How the data were processed

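The authors deposited raw counts per gene for each library, beside gene lengths, in 1 table. The submitters' processing notes name Trim Galore, STAR, featureCounts of Subread and mm39, with no versions. The annotation release and strand setting are not given in the sources used here. Libraries were stranded (dUTP) and read from both ends, and the labels do not settle whether poly(A) selection or ribosomal RNA depletion was used. Symbols and coordinates are from GENCODE M39, which holds 78168 of the 78298 identifiers; the rest carried 0.143% of counts.

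Analysis used edgeR 4.0.16 under R 4.3.3: filterByExpr with a minimum count of 10, TMM scaling, and 1 robust quasi-likelihood fit of the 4 groups to all 12 libraries, tested on simulated data. The F-tests are two-sided, with Benjamini-Hochberg adjustment over 22190 genes in each of 5 comparisons. SE is the log2 fold change over the square root of F. DESeq2 1.42.0 was an alternative, as were other scalings, no filter, fits of only the compared groups, blocks for replicate number and prefix, and left-out libraries. All 10 members were named, any gene of the 3 pathway lists could be, and likeness took the 3 nearest genes with average log2 CPM of at least 2 (prior count 2); 1 of these genes is not reported here. Members and lists were chosen with earlier results of these data known.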

Additional observations from a re-analysis of the deposited data

How the results depend on the processing

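The Il13ra1 call under HDM held in all 14 alternative fits, and the number of members called by treatment or interaction was 0 in all. Members called under VEH went from 1 to 3 with DESeq2 (Il1rl1 and Il17rb added), to 0 without the 4 libraries with conflicting prefixes, and ranged from 1 to 2 when a library was left out (2 without normal VEH replicate 2). Under HDM they went from 3 to 1 with no filter on low counts, and ranged from 1 to 3 when a library was left out (1 without normal HDM replicate 1). Genes called under VEH fell from 8624 to 5603 without the 4 libraries and to 5733 without tumour VEH replicate 1. For HDM against VEH in tumours, 21 genes were called, 8 with scaling by library size, 52 with no filter, 1311 with DESeq2, 1 with the replicate block and 0 with only the compared groups, with the prefix block or without the 4 libraries, and 0 to 24 when a library was left out. HDM against VEH in normal lung went from 0 to 43 with DESeq2, and the interaction from 0 to 222 with DESeq2 and to 6 without tumour HDM replicate 3. The cause was not tested.

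Signs turned only for values that were not called. Tumour against normal under VEH, Il33 was 0.028 with scaling by library size, 0.67 without the 4 libraries and -0.53 to 0.49 when a library was left out, and Il4ra was 0.34 and -0.39 to 0.25 in the last pair. Under HDM, Il4ra was -0.057 with DESeq2 size factors and with DESeq2, -0.033 with only the compared groups, -0.20 without the 4 libraries and -0.10 to 0.30 when a library was left out, and Il4 -0.066 to 0.76. Without the 4 libraries, HDM against VEH was 0.14 for Il1rl1 and -0.26 for Il17rb in normal lung and -0.32 for Il4 in tumours, and the interaction was -0.59 for Il33, 0.15 for Tslp and -0.54 for Il4ra. Leaving out a library, HDM against VEH in normal lung ranged from -2.31 to 0.78 for Il1rl1, -0.91 to 0.38 for Tslp and -0.0056 to 0.71 for Il4ra, and in tumours from -0.22 to 0.73 for Il1rl1 and -0.12 to 0.71 for Il4. The interaction ranged from -0.13 to 1.08 for Il33, -0.48 to 2.62 for Il1rl1 and -0.24 to 0.48 for Il4ra.

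Replicate numbers and prefixes are shared between groups, but the deviations of libraries with the same number or prefix did not all correlate above 0.1, so neither was taken as pairing. With the replicate block, Il33 under VEH was 0.0048, and the calls of Tslp (adjusted p 0.0584), Il2rg (0.0653) and Muc5ac (0.0813) were lost. With the prefix block, Il33 was 0.83 and Il4ra 0.23 under VEH, Il4ra -0.27 under HDM, Tslp 0.96 and Il4 0.97 in normal lung by treatment, and Il33 -0.73, Il1rl1 -0.66, Tslp 1.15 and Il4ra -0.40 in tumours by treatment. Its interaction was -0.75 for Il33, 0.19 for Tslp and -0.50 for Il4ra. The pathway lists were run under the same alternatives, chosen after seeing the data. Genes called ranged from 1 to 4 of the partner list under VEH and 2 to 4 under HDM, 1 to 6 and 2 to 4 of the signalling list, and 2 to 5 and 4 to 8 of the response list. With 3 libraries a group, standard errors of about 1 on the log2 scale for Il1rl1, Tslp and Il17rb limit what can be seen, and Il5, Il13 and Il25 lie at the depth limit.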
